A study of Mus musculus with 23 samples.

Results

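Primary mouse embryonic fibroblasts (MEFs) that carried the dimer-interface change of the DNA-binding domain of the glucocorticoid receptor (D) together with the ligand-binding domain change (L), written GRD+L/D+L, were compared with GRL/L MEFs, which carried the L change alone. Both genotypes share L, so the comparison asks what D adds to a receptor that already carries L. All 12 libraries of the 2 genotypes were taken from the 23 RNA-seq libraries of the series, 6 per genotype. Each genotype was represented by 3 cultures, and each culture gave 1 library after 5 h of vehicle and 1 after 5 h of 10 nM dexamethasone (Dex), a synthetic glucocorticoid. All mice were FVB/NJ. The embryos came from intercrosses of heterozygous mice at mid-gestation, head and organs were removed before the fibroblasts were grown, and the D+L allele went back to a single pup born after CRISPR/Cas9 mutagenesis of GRwt/D zygotes, so that GRD+L/D+L stands for 1 edited line. GRwt/wt (unmodified receptor) and GRD/D (D alone) cultures, 3 Dex libraries each, were used to measure the D difference without L. The 2 libraries of a culture share their cells, so n is the number of cultures.

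The glucocorticoid receptor is a ligand-activated transcription factor that waits in the cytoplasm bound to the chaperones Hsp90 and Hsp70 and enters the nucleus once a glucocorticoid is bound. As a dimer it sits on palindromic response elements and switches on genes such as Fkbp5, Tsc22d3 and Per1, and both the DNA-binding domain and the ligand-binding domain contribute contacts between the 2 receptor molecules. In fibroblasts glucocorticoids restrain inflammation and affect matrix production. Fkbp5 encodes a co-chaperone that feeds back on the receptor, Tsc22d3 encodes the anti-inflammatory leucine zipper protein GILZ, Per1 is a clock gene, and Sgk1 encodes a kinase of salt transport and cell survival.

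Library totals ranged from 17.4 to 23.1 M counts (M, 1e6), and 18804 to 20155 genes had at least 1 count. The cultures were fibroblast-like by their markers, with a summed level of 14 fibroblast genes of 47730 to 79807 CPM (counts per M of the TMM-scaled library size) in GRD+L/D+L and 67309 to 72914 CPM in GRL/L, while 7 of 7 erythroid, 13 of 18 skeletal muscle and 7 of 11 epithelial markers, among them Myod1, Epcam and Krt14, stayed under 1 CPM in all 12 libraries. GRD+L/D+L culture 1 stood apart. Its Spearman correlations with GRD+L/D+L cultures 2 and 3 were 0.9546 to 0.9621, below its correlations with GRL/L culture 3 of 0.9800 to 0.9807, and cultures 2 and 3 correlated with each other at 0.9906 to 0.9912. Its summed bone markers were 3141 to 3258 CPM, against 174 to 435 CPM in cultures 2 and 3 and 416 to 1245 CPM in GRL/L, and its neuron and glia markers 253 to 280 CPM, against 44.9 to 76.9 CPM and 80.9 to 160.5 CPM. In culture 1 the cartilage gene Col2a1 measured 185 CPM in vehicle and 230 CPM with Dex, against at most 21.4 CPM in the other 10 libraries, and Acta2, encoding smooth muscle actin, measured 273 and 282 CPM against at least 687 CPM in the other 10. Cultures 2 and 3 differed from GRL/L as well. Summed smooth muscle and myofibroblast markers were 4509 to 5766 CPM in cultures 2 and 3, 2449 to 3155 CPM in GRL/L and 1741 to 1807 CPM in culture 1. All 3 GRD+L/D+L cultures and GRL/L cultures 1 and 3 contained the Y-linked transcript Ddx3y at 90.1 to 111 CPM, whereas GRL/L culture 2 had none and measured 1467 to 1493 CPM of Xist. Many results below changed without GRD+L/D+L culture 1. For many that changed a call or moved by over 1.5 times, values without it are given. Of the libraries labelled GRwt/wt vehicle, library 1 held 3.92 CPM of Nr3c1, against 71.3 and 87.9 CPM in libraries 2 and 3, and library 3 held 5786 CPM of summed macrophage markers, against 46.5 and 21.6 CPM in libraries 1 and 2. The vehicle libraries of GRwt/wt and GRD/D enter only where this is said, and whether equal numbers mark shared cultures there is not given.

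Promoter windows are shown for 3 genes named below. The window shown for Sgk1 holds the letters of the receptor's whole response element, and those shown for Tsc22d3 and Pde4b a single arm of it. The starts shown were chosen for this, and the other annotated starts of each gene include windows with no arm. The 250 bases before 1 annotated start of each gene were taken from RefSeq (GRCm38.p6), 5′ to 3′ on the gene's strand, with each of the 6-base arms TGTTCT or AGAACA in capitals.
Sgk1 (chr10:21993640-21993889, plus strand): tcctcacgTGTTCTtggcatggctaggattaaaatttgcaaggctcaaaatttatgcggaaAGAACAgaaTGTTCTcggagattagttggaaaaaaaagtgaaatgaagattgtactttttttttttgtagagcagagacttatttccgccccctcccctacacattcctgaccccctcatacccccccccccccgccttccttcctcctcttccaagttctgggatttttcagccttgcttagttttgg
Tsc22d3 (chrX:140600523-140600772, minus strand): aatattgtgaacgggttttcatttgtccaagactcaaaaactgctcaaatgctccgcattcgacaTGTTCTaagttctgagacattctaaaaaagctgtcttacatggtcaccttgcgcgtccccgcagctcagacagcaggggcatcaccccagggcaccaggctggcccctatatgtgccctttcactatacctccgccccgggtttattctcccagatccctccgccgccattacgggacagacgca
Pde4b (chr4:102421305-102421554, plus strand): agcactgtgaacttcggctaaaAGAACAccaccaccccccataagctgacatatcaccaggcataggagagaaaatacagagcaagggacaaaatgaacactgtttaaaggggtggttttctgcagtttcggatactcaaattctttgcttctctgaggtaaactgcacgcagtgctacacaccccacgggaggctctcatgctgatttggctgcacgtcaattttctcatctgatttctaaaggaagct
The Sgk1 window is the single one among the 11061 tested genes with a RefSeq promoter that held the whole palindrome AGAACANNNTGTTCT. An arm on either strand, of which the palindrome contains 2, was present between 250 bases before and 50 after the start in 1618 of these 11061 genes (14.6%). No Fkbp5, Per1 or Klf9 window upstream of the start held one. Of the separated genes described below, 78 of 370 lower ones with a promoter (21.1%) and 1 of 26 higher ones (3.85%) held an arm, given as a description with no test.

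Nr3c1 (chr18:39410545-39519421), the gene of the receptor itself, measured 134, 131 and 137 CPM in the vehicle libraries of GRL/L cultures 1, 2 and 3 and 134, 136 and 130 CPM in their Dex libraries. In GRD+L/D+L it measured 129, 256 and 238 CPM in vehicle and 118, 272 and 233 CPM with Dex. Culture 1 of GRD+L/D+L thus lay at or under the GRL/L level, while cultures 2 and 3 lay above every GRL/L library. The log2 fold change (LFC) of GRD+L/D+L against GRL/L was 0.60 (SE 0.26, n = 3 cultures each, adjusted p = 0.327 in edgeR's quasi-likelihood test with Benjamini-Hochberg adjustment, as for every adjusted p below), and 0.87 without culture 1 (adjusted p = 0.00497). The point changes themselves are not visible in gene counts, so Nr3c1 levels do not show which allele a library carries.

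Across the transcriptome, many genes were lower in GRD+L/D+L than in GRL/L, but none passed the test across all genes. With the vehicle and Dex counts of each culture summed, 0 of 15297 genes tested (0%) were called, where a call in edgeR required an adjusted p up to 0.05 together with an LFC of 1 or more in size. The lowest adjusted p was 0.0569, shared by Gm8615, Clec3b and Msl3, and 2558 genes (16.7%) had an unadjusted p under 0.05, 1150 higher and 1408 lower. Without GRD+L/D+L culture 1, 1010 of 15686 genes (6.44%) were called, 252 higher (1.61%) and 758 lower (4.83%), and DESeq2 on all cultures called 593 (3.48%). Leaving out any other single culture called 0. Culture 1 was singled out because it stood apart in these same counts, and leaving it out narrows the spread within GRD+L/D+L. Calls without it, here and below, are therefore a description and not independent support. Genes below are therefore described by whether the libraries overlapped. In 49 genes (0.32%) all 6 GRD+L/D+L libraries were above all 6 GRL/L libraries with an LFC of at least 1, and in 519 genes (3.39%) all 6 were below with an LFC of at most -1. These are called separated. They were selected on the same counts, and the 2 libraries of a culture are not independent, so separation is a description and not a test. The majority of lower genes rests on the fold threshold. At any LFC, the libraries of 929 genes (6.07%) did not overlap and were higher, and those of 869 (5.68%) lower. Of all 15297 genes, 7962 had an LFC above 0.

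Fitting the Dex libraries of all 4 genotypes together, a fit added after the data had been seen, gave a spread estimated over 12 libraries and called 7 of 14818 genes (0.0472%) between GRD+L/D+L and GRL/L. All 7 were separated. Gnpda1 was higher (0.00675%), and Gm8615, Pde4b, Crabp1, Adh7, Aff3 and Tmtc2 were lower (0.0405%).

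Gm8615 (chr5:149155108-149156209), a transcribed pseudogene, was nearly absent from GRD+L/D+L. It had 0 to 3 counts in each of the 6 GRD+L/D+L libraries, 12 in all, and 153 to 255 counts in each GRL/L library, 1208 in all, a ratio of 100.3 after scaling to library depth (95% exact counting interval 57.2 to 195). The interval covers counting error only. In CPM it measured 10.5 ± 1.24 (SD, n = 3 cultures) in GRL/L. The same was found for D without L, with at most 5 counts in each GRD/D library and at least 217 in each GRwt/wt library. With Dex, Gm8615 fell in GRD+L/D+L against GRL/L (LFC -6.46, adjusted p = 0.00373) and in GRD/D against GRwt/wt (LFC -7.16, adjusted p = 0.00127), and the difference between both was 0.70 (95% confidence interval -1.61 to 3.01). Over culture sums without culture 1 it was also called (LFC -6.11, adjusted p = 0.00105). Because only uniquely mapped reads were counted, the level of a pseudogene with a similar parent gene is uncertain.

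Gnpda1 (chr18:38327535-38339003), encoding glucosamine-6-phosphate deaminase, was the 1 gene called higher. It measured 32, 29.5 and 24.1 CPM in GRL/L vehicle libraries and 29.6, 31.9 and 27.1 CPM with Dex, against 50.5, 67.8 and 63.6 CPM and 45.7, 69.7 and 66.8 CPM in GRD+L/D+L. No libraries of the genotypes overlapped, and culture 1 was the lowest of GRD+L/D+L. The LFC in the Dex libraries was 1.01 (SE 0.14, adjusted p = 0.0354). D without L gave 1.21 (SE 0.14, adjusted p = 0.00579), with 72.1 to 76.3 CPM in GRD/D and 30.3 to 34.5 CPM in GRwt/wt, and the difference of the 2 LFC was -0.20 (95% confidence interval -0.62 to 0.23). Over culture sums without culture 1, Gnpda1 was called (LFC 1.17, adjusted p = 0.00529). Gnpda1 lies 1.07 Mb from Nr3c1.

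Pde4b (chr4:102087543-102607259), a phosphodiesterase that degrades cyclic AMP, moved in opposite directions on the 2 receptors. GRL/L held 15.3, 18.6 and 18.9 CPM in vehicle and 18, 18.6 and 16.8 CPM with Dex, and GRD+L/D+L held 8.34, 2.83 and 4.81 CPM and 5.32, 4.31 and 4.98 CPM. All GRD+L/D+L libraries were below all GRL/L libraries. With Dex, Pde4b fell by 1.89 on the log2 scale in GRD+L/D+L against GRL/L (SE 0.14, adjusted p = 0.000501) and rose in GRD/D against GRwt/wt (LFC 1.51, SE 0.13, adjusted p = 0.00127), where GRD/D had 19.3 to 22.7 CPM and GRwt/wt 6.24 to 7.67 CPM. The D difference on the L receptor minus that without L was -3.40 (SE 0.19, adjusted p = 3.86e-05), the lowest adjusted p of that comparison. The macrophage markers described below differed between the same libraries in the same directions, and their part in the Pde4b difference was not tested. Over culture sums without culture 1, Pde4b was called (LFC -2.12, adjusted p = 0.00576).

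The other 4 genes called lower fell on the L receptor with no call on the receptor without L. Crabp1, which binds retinoic acid in the cytoplasm, measured 623, 577 and 581 CPM in GRL/L vehicle libraries and 638, 578 and 569 CPM with Dex, against 166, 69.3 and 115 CPM and 152, 72.0 and 118 CPM in GRD+L/D+L. GRD+L/D+L culture 2 was the lowest and culture 1 the highest of its genotype, and every GRL/L library was above. Its LFC with Dex was -2.40 (SE 0.23, adjusted p = 0.00373) on the L receptor and 0.31 (adjusted p = 0.513) without L. Adh7, an alcohol and retinol dehydrogenase, measured 27.6 to 39.3 CPM in GRL/L and 4.83 to 9.01 CPM in GRD+L/D+L (LFC with Dex -2.22, adjusted p = 0.00373). Aff3, a transcription elongation factor gene, measured 46.4 to 58.0 CPM and 9.11 to 18.4 CPM (LFC with Dex -1.82, adjusted p = 0.0133). Tmtc2, an endoplasmic reticulum protein gene, measured 18.9 to 43.3 CPM and 4.97 to 6.26 CPM (LFC with Dex -2.33, adjusted p = 0.0133). Tmtc2 and Adh7 overlap exons of another gene on the opposite strand, and strandedness of the counting was not given in the sources used here. For Crabp1, Adh7, Aff3 and Tmtc2 the difference between the receptors with and without L was called, with LFC from -2.71 to -1.71 and adjusted p of 0.00993, 0.00995, 0.0144 and 0.0174 in that order. Without culture 1, over culture sums, Crabp1 (LFC -2.70, adjusted p = 0.00625), Adh7 (-2.47, adjusted p = 0.00705), Aff3 (adjusted p = 0.0135) and Tmtc2 (-2.47, adjusted p = 0.0142) were called.

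**Figure D1:**
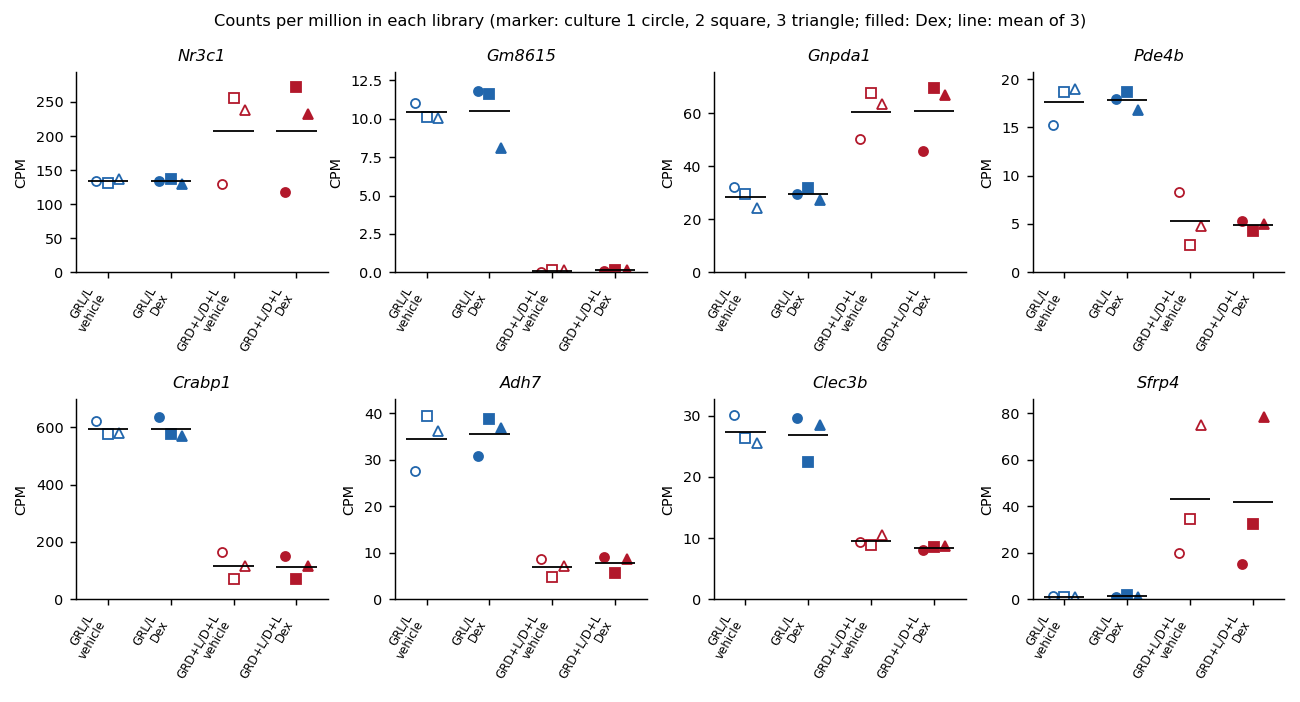
CPM (TMM scaled, linear axes from 0) of 8 genes in each of the 12 libraries, grouped by genotype and treatment, with the culture as marker shape, Dex libraries filled and a line at the mean of 3. The vehicle and Dex points of a culture lie close together, Nr3c1 of GRD+L/D+L culture 1 lies at the GRL/L level, and in the other 7 genes the genotypes do not overlap.

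Clec3b, encoding the plasminogen-binding protein tetranectin, was among the genes with the lowest adjusted p over culture sums. It measured 30.1, 26.3 and 25.5 CPM in GRL/L vehicle and 29.7, 22.4 and 28.5 CPM with Dex, against 9.43, 8.87 and 10.5 CPM and 7.97, 8.57 and 8.73 CPM in GRD+L/D+L (LFC -1.61, SE 0.11, adjusted p = 0.0569). It also fell in GRD/D against GRwt/wt with Dex (LFC -2.04, adjusted p = 0.0387), where GRD/D held 6.21 to 8.26 CPM and GRwt/wt 11.1 to 51.5 CPM. Among separated genes, Sfrp4, a secreted Wnt inhibitor, had the greatest LFC. It measured 0.774 to 1.65 CPM in GRL/L and 19.9, 34.7 and 74.7 CPM in vehicle and 15.1, 32.3 and 78.2 CPM with Dex in GRD+L/D+L (LFC 5.24, SE 0.63, adjusted p = 0.0929). With Dex, GRD/D held 1.16 to 1.59 CPM and GRwt/wt 13.6, 0.647 and 0.811 CPM, so that GRwt/wt library 1, without D or L, came close to GRD+L/D+L culture 1. Thrb, the thyroid hormone receptor beta gene, measured 2.97 to 8.20 CPM in GRL/L, 8.44 and 10.2 CPM in GRD+L/D+L culture 1 and 46.8 to 55.8 CPM in cultures 2 and 3 (LFC 2.72, adjusted p = 0.156). Ano5, Kcnj15 and Thrb had the same pattern of culture 1 just above GRL/L, as in Ano5 with 5.70 and 5.94 CPM in culture 1, 4.13 to 5.52 CPM in GRL/L and 45.6 to 51.5 CPM in cultures 2 and 3. Without culture 1, Clec3b (LFC -1.60, adjusted p = 0.00498), Sfrp4 (LFC 5.61, adjusted p = 0.00497), Thrb (3.18, adjusted p = 0.00625), Ano5 (3.20, adjusted p = 0.00079) and Kcnj15 (4.02, adjusted p = 0.00126) were called.

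Gm8730 and Slc4a4, called higher in GRD/D against GRwt/wt with Dex, were separated in the same direction. Gm8730, a processed pseudogene on chromosome 8, measured 7.08 to 9.30 CPM in GRL/L, 9.80 and 9.98 CPM in GRD+L/D+L culture 1 and 196 to 240 CPM in cultures 2 and 3, with 260 to 272 CPM in GRD/D and 10.3 to 16.9 CPM in GRwt/wt. Slc4a4, a sodium bicarbonate cotransporter gene, measured 13.8 to 15.7 CPM in GRL/L, 22.7 and 26.6 CPM in GRD+L/D+L culture 1 and 52.4 to 75.0 CPM in cultures 2 and 3, with 54.4 to 67.5 CPM in GRD/D and 13.1 to 14.8 CPM in GRwt/wt. In Gm8730 culture 1 lay near GRL/L, in Slc4a4 and Gnpda1 between both groups, and in Gm8615 and Clec3b with the other GRD+L/D+L cultures. With Dex, 258 genes (1.74%) were called for GRD/D against GRwt/wt, 117 higher (0.79%) and 141 lower (0.952%). Of the 568 separated genes, 7 were called there in the same direction and 88 in the opposite direction. Of the 88, 83 were lower in GRD+L/D+L than in GRL/L, and they included the macrophage and leukocyte genes Cd48, Spi1, Adgre1, Csf1r, C1qa, Fcer1g and Itgam. The part of the macrophage level in these opposite calls was not tested. Without culture 1, Gm8730 (LFC 4.68, adjusted p = 0.000105) and Slc4a4 (2.00, adjusted p = 0.00126) were called.

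The genes that glucocorticoids induce were centred on no difference between GRD+L/D+L and GRL/L. Of 20 listed genes, 18 were tested over culture sums, 0 were called and 1 was separated (5.56%, against 3.71% of all genes). Their median LFC was 0.00, against 0.01 over all genes tested (-0.06 and -0.01 without culture 1). Fkbp5 measured 24.9, 28.8 and 27.2 CPM in GRL/L vehicle and 28.7, 30.3 and 29.3 CPM with Dex, and 20.4, 35 and 29.6 CPM and 21.6, 36.9 and 30.9 CPM in GRD+L/D+L. GRD+L/D+L culture 1 was the lowest and culture 2 the highest of all, and the GRL/L libraries lay between them. The LFC between the genotypes was 0.01 (95% confidence interval -0.45 to 0.47). Tsc22d3 spanned 33.6 to 49.8 CPM in GRL/L and 25.2 to 59.3 CPM in GRD+L/D+L (LFC 0.03, interval -0.66 to 0.71). Per1 spanned 26.1 to 31.3 CPM and 22.6 to 28.9 CPM (LFC -0.16, interval -0.37 to 0.06), and Klf9, a transcription factor gene, 31.0 to 43.4 CPM and 33.7 to 48.1 CPM (LFC 0.08, interval -0.29 to 0.45). Sgk1, whose window above holds the whole palindrome, spanned 67.1 to 74.4 CPM and 57.2 to 80.4 CPM (LFC 0.00, interval -0.28 to 0.28). The separated member was Crispld2, a secreted protein gene, with 10.4 to 41.5 CPM in GRL/L and 1.77 to 7.71 CPM in GRD+L/D+L (LFC -2.25, SE 0.65, adjusted p = 0.187). The libraries of 3 further members did not overlap, with an LFC of under 1 in size, where 11.8% of all genes did not overlap at any LFC (6.07% higher and 5.68% lower). Ddit4, a stress-induced inhibitor of mTOR signalling, measured 52.2 to 62.9 CPM and 69.0 to 98.6 CPM (LFC 0.50, adjusted p = 0.129). Nfkbia, the inhibitor of NF-kappaB, measured 11.4 to 13.0 CPM and 13.6 to 20.8 CPM (LFC 0.48, adjusted p = 0.214). Angptl4, an inhibitor of lipoprotein lipase, was lower, with 220 ± 30.3 CPM and 150 ± 52.9 CPM (SD, n = 3 cultures, LFC -0.58, adjusted p = 0.363). Without culture 1, the LFC was 0.19 for Fkbp5, 0.27 for Tsc22d3, 0.11 for Sgk1 and -0.02 for Klf9. Errfi1, a feedback inhibitor of EGF receptor signalling, was then the 1 member called (LFC -1.28, adjusted p = 0.0487, against 0.17 with all cultures), where 6.44% of all genes were called. Crispld2 was not called without culture 1 (LFC -2.58, adjusted p = 0.0644).

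The response to 10 nM Dex was likewise not found to differ. In a fit with culture as a block, 0 of 15042 genes (0%) were called for a genotype difference in Dex response by edgeR, with 892 at an unadjusted p under 0.05, and DESeq2 called 0. The nuclear noncoding RNAs Malat1 and Dnm3os and 3110039I08Rik passed the adjusted p alone (0.0185 each), with response differences of 0.42, 0.37 and 0.43 on the log2 scale, under the fold threshold. Dex called 0 genes within either genotype. On adjusted p without the fold threshold, the GRD+L/D+L cultures gave 16 genes and the GRL/L cultures 0, with an unadjusted p under 0.05 for 508 genes of GRL/L cultures and for 1323 of GRD+L/D+L cultures. For Fkbp5 the response in GRD+L/D+L minus that in GRL/L was -0.06 (95% confidence interval -0.25 to 0.14), for Tsc22d3 0.00 (-0.17 to 0.17) and for Per1 -0.21 (-0.42 to 0.01).

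On the receptor without L, Fkbp5 and Tsc22d3 were lower with D in Dex-treated cells. GRD/D held 95.1 to 119 CPM of Fkbp5 and GRwt/wt 310 to 379 CPM (LFC -1.77, SE 0.17, adjusted p = 0.00168). Tsc22d3 measured 53.1 to 60.5 CPM in GRD/D and 164 to 235 CPM in GRwt/wt (LFC -1.86, SE 0.26, adjusted p = 0.0112). The D difference in Fkbp5 was 1.76 higher on the L receptor than without L (SE 0.23, adjusted p = 0.00993, 95% confidence interval 1.24 to 2.27), that in Tsc22d3 1.90 higher (SE 0.36, adjusted p = 0.0179) and that in Klf9 1.09 higher (SE 0.21, adjusted p = 0.0177). In Per1 it was 0.65 higher (adjusted p = 0.0567), which missed the threshold. Of 20 listed genes tested, 5 were called for this dependence on L, against 3.07% of all genes. Crispld2 was not called for GRD/D against GRwt/wt (adjusted p = 0.374). With Dex, the median LFC of the listed genes tested was -1.01 for GRD/D against GRwt/wt. The 2 D differences share no libraries, but come from different cultures. In vehicle libraries, with 2 GRD/D libraries and with the GRwt/wt libraries 1 and 3 described above, 0 genes were called for the dependence on L (1046 with an unadjusted p under 0.05). Leaving out library 1 or library 3 gave 0 calls (1707 and 2583 with an unadjusted p under 0.05) and leaving out both gave 2, with a single GRwt/wt library assumed to vary like the other groups.

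**Figure D2:**
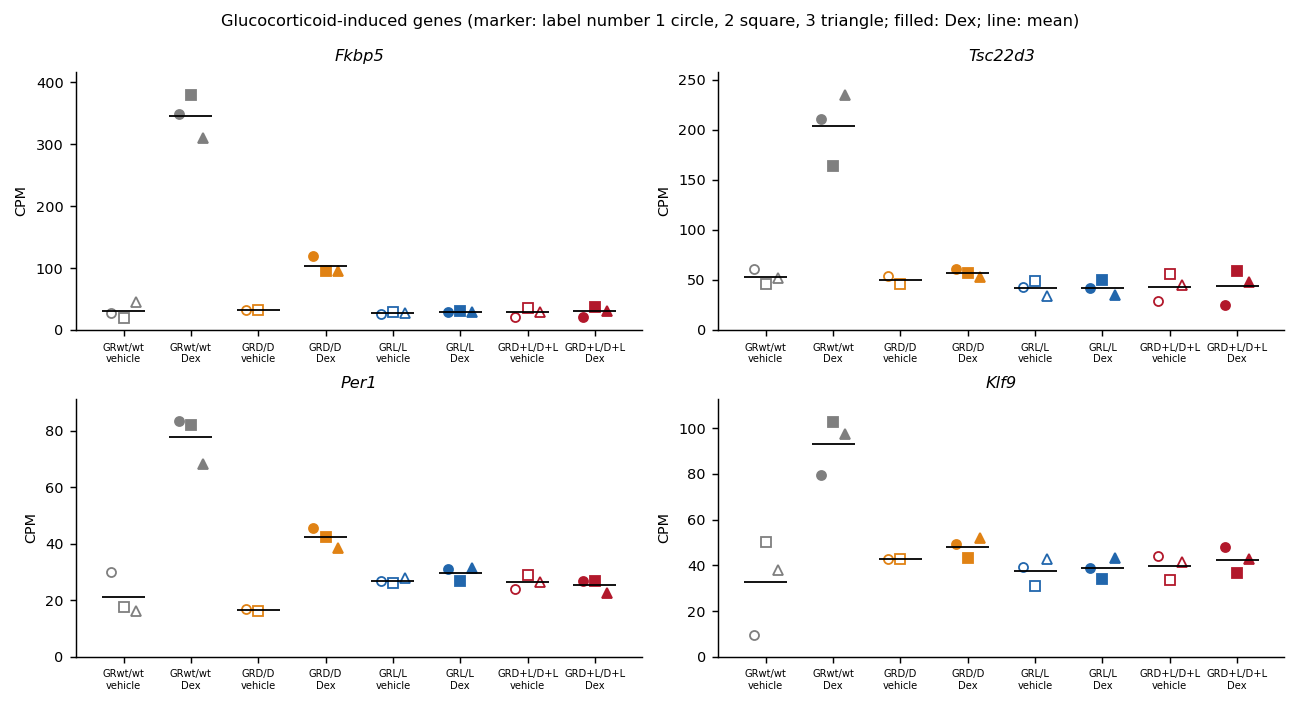
CPM (linear axes from 0) of Fkbp5, Tsc22d3, Per1 and Klf9 in every library of the 4 genotypes, with vehicle libraries open, Dex libraries filled and lines at group means. The GRL/L and GRD+L/D+L libraries overlap in all 4 genes in vehicle and with Dex, while the Dex libraries of GRwt/wt lie above all others.

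The chaperones that hold the receptor were examined next. Of 24 genes of the steroid receptor pathway tested, 0 were called and 1 was separated (4.17%, against 3.71% of all genes). Their median LFC was 0.04, and -0.02 without culture 1. Hspa8, the constitutive Hsp70, measured 670 to 703 CPM in GRL/L and 847 to 922 CPM in GRD+L/D+L (LFC 0.33, SE 0.07, adjusted p = 0.128). Hsp90ab1 measured 1678 ± 38.9 CPM (SD, n = 3 cultures) and 2158 ± 133 CPM (LFC 0.34, adjusted p = 0.19), and Hsp90aa1 228 ± 5.25 CPM and 291 ± 19.1 CPM (LFC 0.33, adjusted p = 0.145). Without culture 1, the LFC of Hspa8, Hsp90ab1 and Hsp90aa1 were 0.33, 0.28 and 0.29, all under the fold threshold. In these 3 genes, and in Stip1 and Fkbp4, co-chaperones of the same complex, no GRL/L library reached a GRD+L/D+L library, as in 6.07% of all genes when no LFC is required. These 5 of 24 were singled out after their values were seen. Nr3c2, the mineralocorticoid receptor gene, was the separated member, with 3.01 to 4.23 CPM in GRL/L and 0.591 to 2.44 CPM in GRD+L/D+L (LFC -1.16, adjusted p = 0.299).

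Macrophage genes were lower in GRD+L/D+L. Of 15 macrophage markers tested, 15 had an LFC under 0 and 13 were separated and lower (86.7%, against 3.39% of all genes), with a median LFC of -3.84. Lyz2, encoding lysozyme, measured 488, 502 and 218 CPM in GRL/L vehicle libraries and 518, 538 and 204 CPM with Dex, against 56.6, 4.69 and 41.5 CPM and 52.4, 3.96 and 40.1 CPM in GRD+L/D+L (LFC -3.65, SE 0.93, adjusted p = 0.159). Adgre1, encoding the macrophage surface protein F4/80, measured 11.4 to 26.4 CPM and 0.0591 to 1.88 CPM (LFC -4.49, SE 0.86, adjusted p = 0.114). Among separated protein-coding genes with a mean of at least 5 CPM in GRL/L, the 10 of lowest LFC were Lilrb4a, Adgre1, Lilr4b, Arhgap25, Ms4a7, Mpeg1, Pirb, Cd36, Il7r and Cd300a, genes of leukocytes or, for Cd36, of macrophages and fat cells. The summed marker level was 356 to 881 CPM in GRL/L, 93.6 to 97.4 CPM in GRD+L/D+L culture 1 and 9.99 to 69.8 CPM in cultures 2 and 3. Aif1 and Cd14 were the members that overlapped, with 1.06 to 2.84 CPM and 0.417 to 1.68 CPM for Aif1. Without culture 1, 13 of the 15 were called lower (median LFC -4.45), against 4.83% of all genes. Among them were Lyz2 (LFC -4.22, adjusted p = 0.0458) and Adgre1 (LFC -5.26, adjusted p = 0.0156). In bulk RNA, fewer macrophages and less RNA per macrophage cannot be told apart.

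With D alone the direction was opposite in Dex libraries. The summed macrophage level in Dex libraries was 322 to 2035 CPM in GRD/D and 20.6 to 119 CPM in GRwt/wt, and 14 of the 15 markers were called for a difference between the receptors with and without L. In vehicle libraries the sum was 333 to 1131 CPM in GRD/D and, in GRwt/wt, 46.5, 21.6 and 5786 CPM in libraries 1, 2 and 3. Adgre1 then measured 155 CPM in GRwt/wt library 3, and its LFC of GRD/D against GRwt/wt was -1.89 (adjusted p = 0.804). Those 14 belong to the 455 of 14818 genes (3.07%) called for that difference, 143 higher (0.965%) and 312 lower (2.11%). The part of the macrophage level in the other called genes was not tested.

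**Figure D3:**
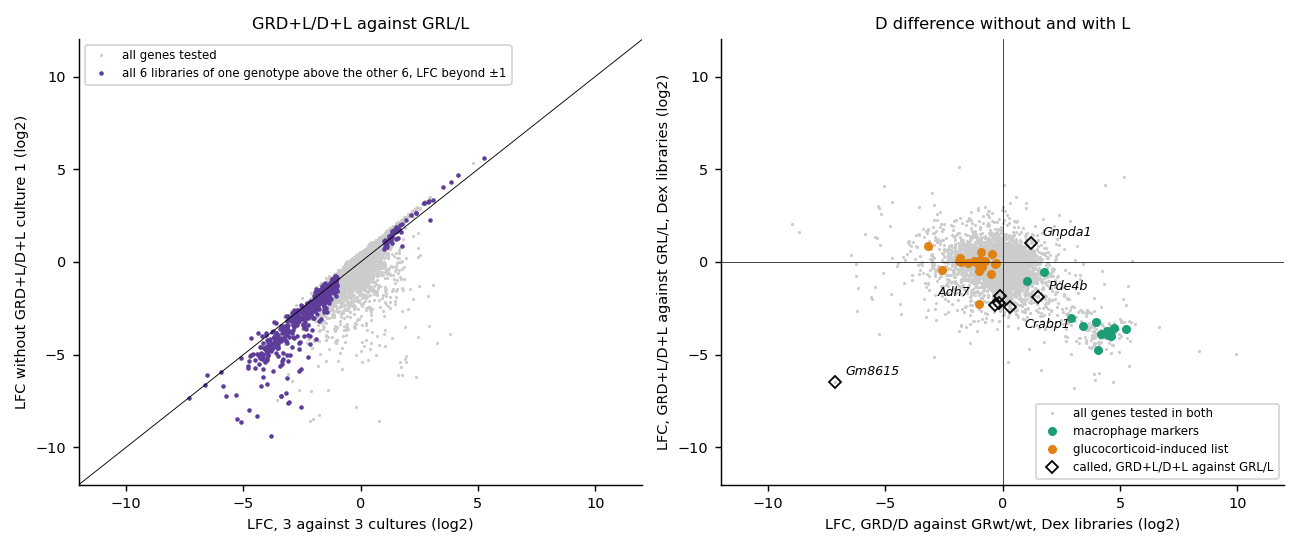
Left, LFC of GRD+L/D+L against GRL/L over 3 against 3 cultures (x) and without GRD+L/D+L culture 1 (y), with the 568 separated genes in purple and the line of equality. Right, with Dex, LFC of GRD/D against GRwt/wt (x) and of GRD+L/D+L against GRL/L (y), where macrophage markers lie to the lower right, glucocorticoid-induced genes mostly left of 0 on x and near 0 on y, and Gm8615 and Gnpda1, among the 7 called genes (diamonds), keep their direction on both axes.

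Of 51 tested factors that pattern the limb and trunk, 5 were separated and higher and 8 separated and lower (25.5% in all, against 3.71% of all genes), with a median LFC of -0.21. Without culture 1, 4 were called higher and 16 lower (median LFC -1.18), against 1.61% and 4.83% of all genes. Osr2, a limb and palate transcription factor, measured 65.3, 85.5 and 52.0 CPM in GRL/L vehicle and 61.8, 87.1 and 53.5 CPM with Dex, and 12.3, 1.72 and 8.05 CPM and 12.1, 2.19 and 8.20 CPM in GRD+L/D+L (LFC -3.21, SE 0.65, adjusted p = 0.126). The hindlimb factors Tbx4 and Pitx1 measured 3.34 to 8.26 CPM and 1.81 to 8.62 CPM in GRL/L. In GRD+L/D+L they measured 1.63 to 2.22 CPM in culture 1, and at most 0.18 CPM in cultures 2 and 3. Their LFC over all cultures were -3.11 (adjusted p = 0.351) for Tbx4 and -3.15 (adjusted p = 0.296) for Pitx1. Shox2, a factor of proximal limb bones, measured 25.8 to 55.1 CPM and 7.54 to 18.6 CPM (LFC -1.68, adjusted p = 0.119). Among the higher ones, Foxd1 measured 1.04 to 9.80 CPM in GRL/L and 13.2 to 18.3 CPM in GRD+L/D+L (LFC 1.72, adjusted p = 0.309), and Dlx5, a factor of bone and face development, 0.11 to 1.19 CPM and 2.35 to 9.34 CPM (LFC 3.07, adjusted p = 0.136). Without culture 1, Osr2 (LFC -3.80, adjusted p = 0.0177), Tbx4 (-7.62, adjusted p = 0.00814), Pitx1 (-6.23, adjusted p = 0.013), Shox2 (-1.50, adjusted p = 0.0351) and Dlx5 (3.35, adjusted p = 0.0248) were called, and Foxd1 was not (1.64, adjusted p = 0.189).

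Of 33 Hox genes tested, 0 were separated and higher (0.32% of all genes) and 6 separated and lower (3.39% of all genes), namely Hoxa10, Hoxa11, Hoxc10, Hoxd8, Hoxd9 and Hoxd10. Hoxd8 measured 17.3 to 56.9 CPM in GRL/L and 3.72 to 14.8 CPM in GRD+L/D+L (LFC -2.17, SE 0.57, adjusted p = 0.168). Hoxa11 measured 3.66 to 6.70 CPM in GRL/L, 1.56 and 1.57 CPM in GRD+L/D+L culture 1 and at most 0.527 CPM in cultures 2 and 3. Hoxa5 and Hoxa7, from the other part of the same cluster, set cultures 2 and 3 apart from culture 1 and GRL/L. Hoxa7 measured 9.92 to 17.2 CPM in GRL/L, 9.87 and 11.3 CPM in GRD+L/D+L culture 1 and 137 to 176 CPM in cultures 2 and 3. Without culture 1, 6 Hox genes were called higher, among them Hoxa7 (LFC 3.49, adjusted p = 0.00247), and 7 lower, among them Hoxa11 (LFC -4.60, adjusted p = 0.0111), where 1.61% of all genes were called higher and 4.83% lower. Hoxd8 was not called (LFC -2.13, adjusted p = 0.0829).

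Of 29 collagens 3 were separated (10.3%), of 33 matrix proteases and inhibitors 4 (12.1%), and of 50 other matrix genes 7 (14%), against 3.71% of all genes tested. All 14 were lower, as were 519 of the 568 separated genes overall. Eln, encoding elastin, measured 29.4, 20.4 and 43.4 CPM in GRL/L vehicle and 27.7, 25.4 and 42.9 CPM with Dex, and 4.48, 3.30 and 9.80 CPM and 3.36, 3.84 and 8.96 CPM in GRD+L/D+L (LFC -2.52, SE 0.46, adjusted p = 0.111). Lum, the small proteoglycan lumican, measured 264 to 518 CPM and 97.1 to 178 CPM (LFC -1.69, adjusted p = 0.109), and Mfap4, an elastic fibre protein gene, 228 to 435 CPM and 60.3 to 128 CPM (LFC -1.99, adjusted p = 0.109). Col7a1, the anchoring fibril collagen, measured 40.6 to 67.2 CPM and 14 to 29.6 CPM (LFC -1.32, adjusted p = 0.124). Adamts15, a proteoglycan-cleaving protease, measured 26.2 to 71.2 CPM and 6.91 to 15.4 CPM (LFC -2.28, adjusted p = 0.109). Medians of the lists were near 0, namely -0.13 for collagens, 0.07 for proteases and inhibitors and -0.06 for other matrix genes (-0.03, 0.02 and -0.08 without culture 1). Of the members tested, 18 of 29 collagens, 15 of 33 proteases and inhibitors and 28 of 50 other matrix genes had an LFC under 0. Of smooth muscle and myofibroblast markers, 14 of 14 tested had an LFC above 0 (median 0.54, and 0.88 without culture 1), with 0 separated. Without culture 1, Eln (LFC -2.33, adjusted p = 0.033), Lum (-1.58, adjusted p = 0.0347), Mfap4 (-1.81, adjusted p = 0.0307), Col7a1 (-1.21, adjusted p = 0.0423) and Adamts15 (-2.45, adjusted p = 0.0252) were called. In that fit 3 collagens were called higher and 5 lower. Of proteases and inhibitors 1 was called higher and 5 lower, and of other matrix genes 1 higher and 8 lower. Among all genes, 1.61% were called higher and 4.83% lower. Tnfaip6, a hyaluronan-binding protein induced in inflammation, was separated as well, with 7.06 to 12.1 CPM and 1.68 to 2.45 CPM (LFC -2.30, SE 0.22, adjusted p = 0.0929, and -2.40, adjusted p = 0.00814, without culture 1).

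Among signalling genes, 3 of 35 Wnt genes were separated and higher (Sfrp4, Fzd5 and Fzd8) and 3 lower (Dkk2, Wnt2b and Wnt5a). Separated genes made up 17.1% of the Wnt, 9.52% of the BMP and TGF-beta, 11.1% of the FGF and hedgehog and 10.5% of the IGF genes, against 3.71% of all genes. The Wnt receptor gene Fzd8 measured 18.9 to 35.5 CPM in GRL/L and 46.1 to 81.3 CPM in GRD+L/D+L (LFC 1.23, adjusted p = 0.137), and Dkk2, a secreted Wnt modulator, 46.4 ± 27.6 CPM and 8.48 ± 4.92 CPM (SD, n = 3 cultures, LFC -2.47, adjusted p = 0.145). Among 42 BMP and TGF-beta genes, Gdf6 was separated and higher, and the separated lower ones included Inhbb and Bmp6. Gdf6, a BMP ligand of joints, measured 14.4 to 17.5 CPM and 18.9 to 56.4 CPM (LFC 1.34, adjusted p = 0.126). Of 27 FGF and hedgehog genes, Fgf1 was higher and Fgf13 and Cdon lower. Of 19 IGF genes, Igf2 and Igfbp5 were separated and lower. The IGF-binding protein gene Igfbp5 measured 2696 to 3623 CPM in GRL/L and 686 to 1296 CPM in GRD+L/D+L (LFC -1.77, SE 0.23, adjusted p = 0.0929), and was the most abundant separated member of the lists. Without culture 1, Igfbp5 (LFC -1.61, adjusted p = 0.0117), Fzd8 (1.39, adjusted p = 0.0245), Dkk2 (-3.07, adjusted p = 0.0232) and Gdf6 (1.59, adjusted p = 0.00497) were called.

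Imprinted genes had a median LFC of -0.58 over 29 tested (-0.55 without culture 1), with 0 separated and higher and 7 separated and lower (24.1% of the list). Peg3, a paternally expressed zinc finger gene, measured 752, 1052 and 475 CPM in GRL/L vehicle and 739, 1100 and 466 CPM with Dex, against 319, 210 and 395 CPM and 319, 224 and 416 CPM in GRD+L/D+L (LFC -1.31, SE 0.36, adjusted p = 0.175). Igf2, the fetal growth factor gene, measured 19.4 to 46.9 CPM in GRL/L, 12.8 and 13.7 CPM in GRD+L/D+L culture 1 and at most 0.836 CPM in cultures 2 and 3 (LFC -2.62, adjusted p = 0.374). Without culture 1, 2 imprinted genes were called higher and 6 lower, against 1.61% and 4.83% of all genes. Igf2 was among those called (LFC -5.85, adjusted p = 0.00769) and Peg3 was not (-1.33, adjusted p = 0.0835). Meg3, Mest, Cdkn1c, Rtl1 and Zim1 were the other separated members. Against 3.71% separated among all genes tested, 6 further lists held 0% to 8.57%. Cell cycle (30 tested), interferon-stimulated (33) and cholesterol and fatty acid synthesis genes (30) had 0, glycolysis and hypoxia genes (35) had Pfkp higher and Slc2a3 and Car9 lower, cytokines and chemokines (26) had Cxcl14 lower, and p53 and senescence genes (23) had Igfbp5 lower. Pfkp, a phosphofructokinase, measured 22.5 to 40.1 CPM in GRL/L and 62.4 to 102 CPM in GRD+L/D+L (LFC 1.45, SE 0.24, adjusted p = 0.103), and was called without culture 1 (LFC 1.63, adjusted p = 0.00898). Without culture 1, 5 of 33 interferon-stimulated and 3 of 30 cell cycle genes were called lower, against 4.83% of all genes. The median LFC was then -0.49 for interferon-stimulated genes (-0.29 with all cultures) and -0.64 for cell cycle genes (-0.07 with all cultures).

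**Figure D4:**
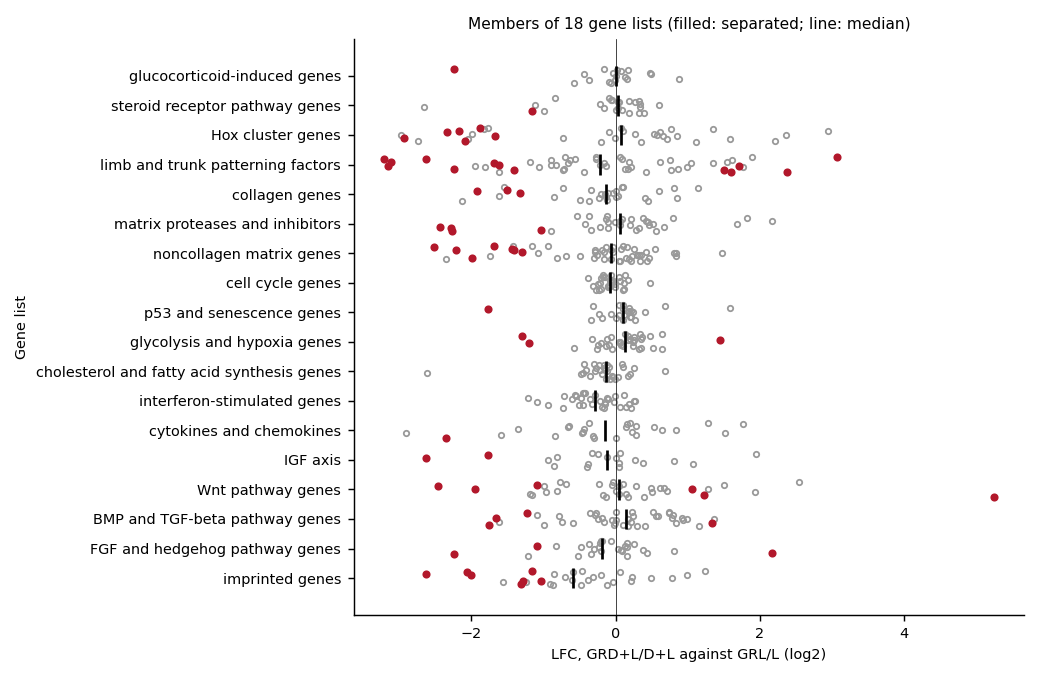
LFC of GRD+L/D+L against GRL/L (x) for every tested member of the 18 gene lists (y), with separated members filled and the list median as a line. Separated members of the patterning, Wnt, BMP, FGF and glycolysis lists lie on both sides of 0 and those of the other lists left of 0, where 519 of the 568 separated genes overall also lie.

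Separated genes were also placed on the genome. Within 10 Mb of Nr3c1, 10 of 180 genes tested (5.56%) were separated, 2 higher and 8 lower, against 4.96% of the other 262 genes tested on chromosome 18 and 3.71% of all genes. The 2 higher were Gnpda1 and Fgf1, which lies 0.48 Mb from Nr3c1 and measured 0.317 to 1.01 CPM in GRL/L and 1.04 to 4.03 CPM in GRD+L/D+L (LFC 2.17, SE 0.54, adjusted p = 0.156, and 2.56, adjusted p = 0.0104, without culture 1). At the distal end of chromosome X, Msl3, Arhgap6, Hccs and Mid1 were higher in all 6 GRD+L/D+L libraries than in any GRL/L library, as were 6.07% of all genes at any LFC. Gm15246 (LFC 0.05) and BC022960 (LFC 0.16), which lie between Hccs and Mid1, and Gm21887 (LFC 0.47), which lies beyond Mid1, overlapped between the genotypes. Msl3 (chrX:168654117-168673898), a subunit of a histone acetyltransferase complex, measured 52.6, 52.6 and 46.5 CPM in GRL/L vehicle and 53.8, 55.0 and 48.6 CPM with Dex, and 107, 94.3 and 104 CPM and 102, 102 and 98.7 CPM in GRD+L/D+L (LFC 0.95, SE 0.07, adjusted p = 0.0569). Hccs, a mitochondrial enzyme gene, had an LFC of 0.95 (SE 0.08, adjusted p = 0.0824) and Mid1, a ubiquitin ligase gene, of 1.25 (SE 0.15, adjusted p = 0.0929). Arhgap6, which overlaps Hccs, had an LFC of 0.91 (SE 0.36, adjusted p = 0.284). Without culture 1, Hccs (LFC 1.01, adjusted p = 0.00402) and Mid1 (1.38, adjusted p = 0.00497) were called, and Msl3 stayed under the fold threshold. Among the Dex libraries of GRD/D, Msl3 ranged from 56.2 to 114 CPM, so the higher level was not particular to GRD+L/D+L.

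Genes of chromosome 14 lay a median of 0.43 (culture 2) and 0.34 (culture 3) above the GRL/L mean on the log2 scale in GRD+L/D+L and 0.00 in culture 1, over 368 genes of at least 5 CPM. Genes of chromosome 10 lay 0.36 above it in culture 2, 0.11 in culture 3 and 0.04 in culture 1, over 536 genes. Outside these 2 chromosomes the medians of GRD+L/D+L cultures lay between -0.10 and 0.14, and those of GRL/L cultures within 0.03 of 0 on every chromosome. Thrb, described above, is a chromosome 14 gene.

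**Figure D5:**
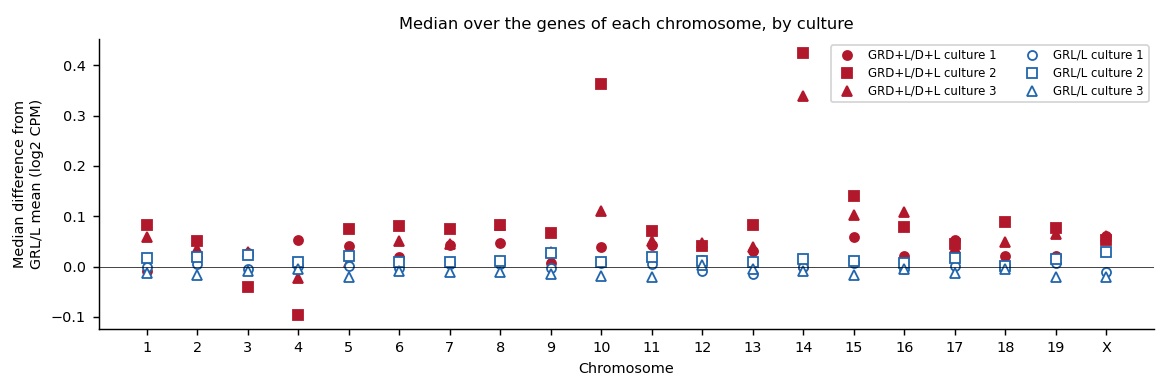
Median difference from the GRL/L mean (log2 CPM, y) over the genes of each chromosome (x) in each of the 6 cultures, with GRD+L/D+L filled and GRL/L open. Chromosome 14 stands out in GRD+L/D+L cultures 2 and 3 and chromosome 10 in culture 2, while culture 1 stays near 0.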

How the data were processed

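Per the labels and the methods of the study, TruSeq libraries were sequenced on an Illumina NovaSeq. The authors aligned reads with HISAT2 2.1.0 to mm10, kept uniquely mapped reads and deposited raw counts per gene from featureCounts 2.0.0. Strandedness and the annotation release are not given in the sources used here, and 55141 of 55487 gene identifiers matched GENCODE M21.

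Counts of the vehicle and Dex libraries of a culture were summed, and 3 cultures were compared with 3 by edgeR 4.0.16 (R 4.3.3) with TMM factors, filterByExpr and a prior count of 0.125. Genes were called at a Benjamini-Hochberg adjusted p up to 0.05 over all genes tested together with an LFC of 1 or more in size. The Dex response was tested as a genotype by treatment term with culture as a block, and the D difference without L, and its dependence on L, in 1 fit of the Dex libraries of 4 genotypes. SE is the absolute LFC over the square root of F. Scripts were tested on simulated data, where culture sums recovered 94.1% of 102 4-fold and 95.9% of 98 8-fold changes among 15328 genes. The changed genes were above 5 CPM, and counts were drawn independently, with no culture that stood apart. These shares check the scripts and do not state which changes could be found in these cultures. DESeq2 1.42.0 and limma 3.58.1 were alternatives. Members and gene lists were chosen with earlier results of these data known. Named genes are Nr3c1, Gm8615, the 10 highest and 10 lowest coding genes, 3 noncoding genes and up to 4 members of each list among called genes of at least 5 CPM, and up to 5 genes per interaction. As 0 genes were called, separated genes took the place of called ones, a change made after the data were seen. Genes shown for context, among them the chaperones, Hox, marker and chromosome X genes, were also chosen after their values were seen. The study took each culture from a different mouse at a higher Dex dose and describes this experiment as set up alike. The labels name no mouse, and p-values measure the spread between these cultures. Some genes that met the naming rule are not reported here.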

Additional observations from a re-analysis of the deposited data

Results flagged for a closer look

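The D difference with Dex depended on L in 455 genes, by a test of the difference itself (edgeR, with the thresholds given above). Values are given for 4 of the 5 genes with the lowest unadjusted p. The D difference on the L receptor minus that without L was -3.40 for Pde4b, described above, and -2.33 for Adcy7, an adenylyl cyclase gene (adjusted p = 0.00993). The summed macrophage markers moved the same way as both genes, and their part was not tested. It was 1.47 for Gpx8, a peroxidase of the endoplasmic reticulum (adjusted p = 0.000315), and 1.53 for Fam122b (adjusted p = 0.00993).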

How the results depend on the processing

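For GRD+L/D+L against GRL/L, 0 genes were called over culture sums. Other settings called 18 without an expression filter, 593 with DESeq2, 729 with 12 libraries and a treatment term, 437 with limma and culture as a random block, 2 in Dex libraries alone and 15 with cultures of all 4 genotypes in the fit. Settings added after the data were seen called 7 with the Dex libraries of all 4 genotypes, 1334 with DESeq2 without GRD+L/D+L culture 1 and 641 without that culture and GRL/L culture 2. Leaving out 1 culture gave 0 to 1010, and the 1010 came without GRD+L/D+L culture 1. The fit of 12 libraries treats libraries of a culture as independent. For the other differences the cause was not tested. Replicate numbers do not pair cultures across genotypes (correlations of same-numbered samples -0.252 to 0.204), and the replicate block called 0. For the Dex response, the adjusted p alone called 3, no filter 1, leaving out a culture 0 to 1 (1 without GRD+L/D+L culture 1) and no replicate block 0. For GRD/D against GRwt/wt (258), the adjusted p alone called 412, no filter 401, at least 10 counts in every library 123, DESeq2 668, the replicate block 196 and leaving out a library 21 to 217 (24, 21 and 132 without GRD/D 1, 2 or 3, and 143 and 60 without GRwt/wt 2 or 3). Vehicle libraries called 1, also without GRwt/wt vehicle 1, and 0 without GRwt/wt vehicle 3. For the dependence on L (455), at least 10 counts called 190, DESeq2 867, vehicle libraries 0 (also without GRwt/wt vehicle 1 or 3, and 2 without both, added after the data were seen), the replicate block 373 and leaving out a library 195 to 623, with 195 and 208 without GRL/L 1 or 2, 248 and 252 without GRD/D 1 or 2, and 292 without GRwt/wt 3.

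Of 107 named genes, 102 kept their direction in every setting run. Many of the 107 were named because they were separated in these same counts. For them a kept direction was largely set by that choice and is no test. The LFC of the 5 that did not keep it, near 0, changed sign. Gpx8 was -0.0289 in vehicle libraries. Fkbp5 was -0.0235 with upper-quartile scaling, -0.000161 with at least 10 counts, -0.0199 with limma, -0.0152 with Dex alone, -0.0146 with the replicate block and -0.0116 with Dex libraries of all 4 genotypes, and -0.154 to 0.191 leaving out a culture. Tsc22d3 was -0.00978 with upper-quartile scaling, -0.0265 with limma and -0.0156 with the replicate block, and -0.206 to 0.271 leaving out a culture. Klf9 was -0.0109 with DESeq2 without culture 1 and -0.122 without both cultures, and -0.026 to 0.198 leaving out a culture. Sgk1 was 0.00372 with DESeq2, 0.0263 in vehicle, 0.00300 with all 4 genotypes, 0.116 with DESeq2 without culture 1 and 0.0759 without both cultures, and -0.077 to 0.107 leaving out a culture. A sex term, added after the data were seen, called 0 genes with sex resting on GRL/L culture 2 alone and gave -0.0182 for Klf9. With 3 cultures a side, the intervals given state the precision of each difference.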
